A study of Homo sapiens with 2 samples.

Results

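Cancer-testis antigens are proteins whose genes are normally active in male germ cells and silent in most adult tissues, and which some tumours switch on again. Most of the genes lie on the X chromosome in families of recently duplicated, nearly identical copies, and their promoters are usually held silent by DNA methylation. The probe sets described here are those of the array whose platform gene symbol starts with MAGEA, MAGEB, MAGEC, GAGE, PAGE, XAGE, SSX and a digit, SPANX, CTAG, CT45 or VCX. A probe set is a group of short probes read together as 1 value. The rule found 74 probe sets among the 54675 of the array. They list 77 gene symbols, 76 of which fit the rule; the other is a read-through transcript listed with MAGEA5P. Of the 74 probe sets, 10 are of other families that share the start of a symbol. Among the 10, 4 read CTAGE genes, set apart as another family than CTAG, whatever their standing as antigens. The other 6 read SSX2IP, whose product binds SSX2 and is not itself an antigen of this kind. These 10 were not counted to the 11 families. They were kept and are given apart, leaving 64 probe sets of 11 families, all 64 of them for genes of the X chromosome.

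RNA came from MDA-MB 231, a human breast cancer line that is highly invasive and lacks the estrogen receptor. In the vector group the cells were transfected with the plasmid pIRES2-EGFP alone, and in the S100A7 group with S100A7 sub-cloned into the same plasmid. S100A7, or psoriasin, is a small calcium-binding protein of inflamed skin, and the study asked which genes it regulates. Both lines were selected as stable transfectants, and whether each is 1 clone or a pool is not given in the sources used here. Each group has 1 array. There are therefore no replicates, no test and no p-value, and every difference below is one between these 2 cultures, not shown to hold for the conditions. The antigen families were singled out with the values of this comparison known, so their difference is a description.

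The S100A7 probe set read 11.99 with vector and 13232 with S100A7, at least 186-fold higher. Intensities are those of the MAS5 algorithm on a linear scale, and both arrays had a trimmed mean of 500.1. No detection call came with the values, so each array's median over probe sets other than controls, 71.0 for vector and 69.0 for S100A7, served as a floor. Probe sets at or above the floor of either array are called measured. Readings under a floor were set to it before ratios were taken, which makes the fold of such a probe set a bound (at least so many fold). Ratios are S100A7 over vector throughout. Of the markers that fit the line, VIM (38087 and 35575), CD44, EGFR, AXL and CAV1 read high on both arrays, while ESR1, PGR and CDH1 were below the floor on both. The other 3 of the 6 genes listed as low were read on both arrays, KRT18 at 18785 and 15670, ERBB2 at 497 and 539.8 and EPCAM at 544 and 513. SPARC, listed as high, read 72.7 and 114. None of the 13 germ cell markers on the array, DDX4, DAZL, SYCP3, TNP1, PRM1 and PRM2 among them, reached the floor on either array, the highest reading being 62.5.

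The sequences before the start sites of the genes the results turn on are shown first. Each is the 250 bases up to the start of the first transcript that the RefSeq table of promoters lists (build GRCh38.p14), 5′ to 3′ on the gene's strand, with every CG pair in capitals, the letters at which promoters of this kind are methylated. MAGEA3 (chrX:152698544-152698793, plus strand), MAGEA12 (chrX:152733507-152733756, plus strand), XAGE1A (chrX:52495627-52495876, plus strand), SSX1 (chrX:48255142-48255391, plus strand) and SPANXB1 (chrX:141002344-141002593, plus strand) stand for families that were lower in S100A7 cells. MAGEB2 (chrX:30215313-30215562, plus strand) stands for a gene that stayed within 2-fold.
MAGEA3: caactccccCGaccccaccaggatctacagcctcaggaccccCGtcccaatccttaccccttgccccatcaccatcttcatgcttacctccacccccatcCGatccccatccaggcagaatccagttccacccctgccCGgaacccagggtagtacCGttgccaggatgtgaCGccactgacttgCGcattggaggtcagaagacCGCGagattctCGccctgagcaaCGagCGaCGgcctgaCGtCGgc
MAGEA12: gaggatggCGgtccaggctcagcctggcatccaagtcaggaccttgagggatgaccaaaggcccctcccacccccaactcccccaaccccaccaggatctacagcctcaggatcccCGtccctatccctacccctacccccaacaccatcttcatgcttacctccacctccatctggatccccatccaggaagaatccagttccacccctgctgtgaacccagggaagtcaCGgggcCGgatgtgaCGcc
XAGE1A: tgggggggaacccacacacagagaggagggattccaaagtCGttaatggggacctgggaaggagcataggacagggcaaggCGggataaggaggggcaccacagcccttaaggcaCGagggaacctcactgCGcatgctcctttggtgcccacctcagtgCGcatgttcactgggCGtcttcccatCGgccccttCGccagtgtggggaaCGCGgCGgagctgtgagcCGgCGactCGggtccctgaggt
SSX1: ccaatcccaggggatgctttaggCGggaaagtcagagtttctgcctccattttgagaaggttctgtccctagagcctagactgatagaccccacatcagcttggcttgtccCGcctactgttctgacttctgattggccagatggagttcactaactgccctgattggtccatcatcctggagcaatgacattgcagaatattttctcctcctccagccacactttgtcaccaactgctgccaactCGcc
SPANXB1: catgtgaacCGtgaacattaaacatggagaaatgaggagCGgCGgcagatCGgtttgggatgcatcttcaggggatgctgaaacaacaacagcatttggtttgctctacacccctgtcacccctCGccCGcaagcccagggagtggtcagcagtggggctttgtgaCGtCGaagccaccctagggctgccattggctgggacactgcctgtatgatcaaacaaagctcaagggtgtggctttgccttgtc
MAGEB2: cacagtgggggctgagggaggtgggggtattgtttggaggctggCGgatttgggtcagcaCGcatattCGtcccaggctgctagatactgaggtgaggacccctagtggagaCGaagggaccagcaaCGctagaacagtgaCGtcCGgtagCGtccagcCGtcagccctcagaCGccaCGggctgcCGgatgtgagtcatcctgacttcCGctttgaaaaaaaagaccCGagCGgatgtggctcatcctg
The window of MAGEA6 (chrX:152769690-152769939, minus strand) was identical to that of MAGEA3 over all 250 bases, and that of XAGE1B (chrX:52517013-52517262, minus strand) to that of XAGE1A. MAGEA3 and MAGEA12 shared a run of 27 bases, accccaccaggatctacagcctcagga. CG pairs numbered 15 for MAGEA3, 5 for MAGEA12, 14 for XAGE1A, 3 for SSX1, 8 for SPANXB1 and 15 for MAGEB2. The last bases of the MAGEA12 window recur well before the end of the MAGEA3 window, which runs on through further CG pairs. The counts of MAGEA3 and MAGEA12 thus cover stretches that are offset from each other. Of the 77 genes listed, 58 had an entry. Leaving out CTAGE and SSX2IP, the 15 with a probe set at least 2-fold lower had a median of 7 CG pairs, the 5 that were measured and stayed within 2-fold 9, the 32 below the floor 8, and the 27305 genes with a window 11. MAGEB2, which stayed within 2-fold, thus had as many CG pairs as MAGEA3. The motif TGACGT (both strands), the core that CREB and ATF factors bind, was chosen after the sequences were seen. It occurred in 3 of the 15 windows of lower genes, those of SPANXB1 and of MAGEA3 and MAGEA6, which are the same sequence. It also occurred in 1 of the 5 windows of genes within 2-fold, that of MAGEB2. Of the 32 below the floor 2 held it, MAGEA9 and MAGEA9B, and of all windows 7.42% did. These shares were not tested. The letters GGAA (both strands), the core of the sites of ETS factors, stood in 11 of the 15 and in 92.8% of all windows. They stood in all 5 of the genes within 2-fold and in 31 of the 32 below the floor. The lower genes without them were SPANXA1, SPANXA2, SPANXB1 and SPANXC, all of 1 family. No methylation was measured in this study.

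Antigen probe sets were lower in the S100A7 line, and in several families they fell from a clear reading to below the floor. Of the 74 probe sets, 36 were measured, and 17 of these were at least 2-fold lower in S100A7 cells, against 2.08% of all 29460 measured probe sets. None (0 of 36) was at least 2-fold higher, against 2.22% of all. Because the families were chosen on this contrast, nothing is read from that gap. All 17 belong to the MAGEA, XAGE, SSX and SPANX families. The median log2 ratio was -0.57 over the 36 and -1.63 over the 27 without CTAGE and SSX2IP, beside -0.01 over all measured probe sets. Of those 27, all but MAGEC2 read lower in S100A7 cells. For 16 of them the filter fixed that direction, as they reached the floor on the vector array only. MAGEC2 reached it on the S100A7 array only. The filter left the direction open for the 10 above the floor on both arrays, and these were all lower. Of the 36, 18 were above the floor on both arrays, 16 on the vector array only and 2 on the S100A7 array only, whereas over the whole array these last numbers were equal by construction at 2153 each. The other 38 were below the floor on both arrays, none reading over 67.5, and are treated as having no order. In cultured cells, fewer cells with an active gene and less RNA per cell cannot be told apart.

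**Figure D1:**
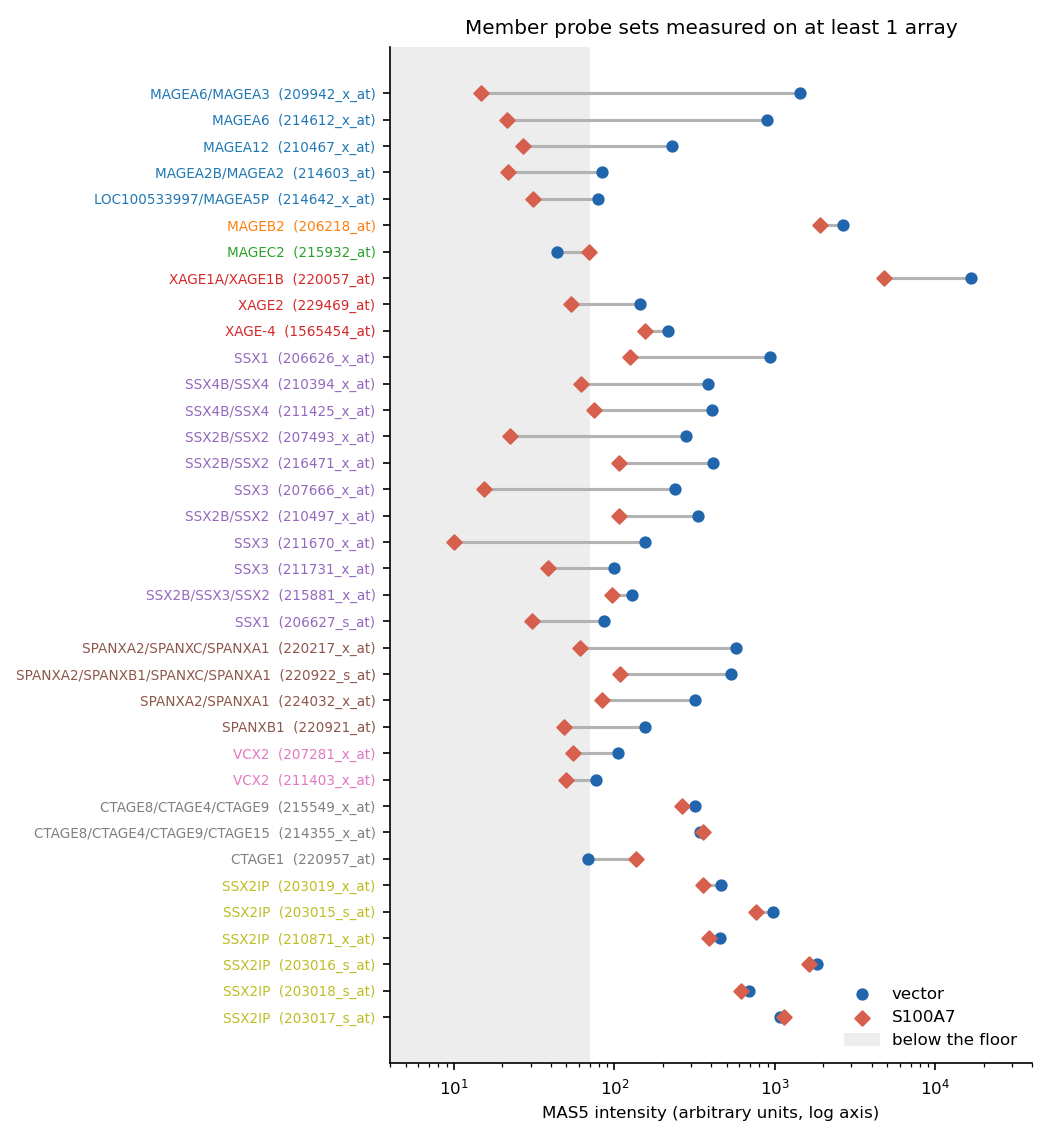
MAS5 intensity (log axis) on the vector array (circles) and the S100A7 array (diamonds) of the 36 antigen, CTAGE and SSX2IP probe sets that reached the floor on at least 1 array, coloured by family, with the probe set name in parentheses; the grey band lies below the S100A7 floor of 69.0. MAGEA6/MAGEA3 spans from 1428 to 14.7, while MAGEB2 and SSX2IP lie close together.

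MAGE-A proteins are scaffolds that bind RING ubiquitin ligases, MAGEA3 and MAGEA6 being known for binding TRIM28, and they are targets of cancer vaccines. The probe set listing MAGEA6 and MAGEA3 went from 1428 with vector to 14.7 with S100A7, at least 20.7-fold lower. That naming MAGEA6 alone read 895 and 21.5, at least 12.97-fold lower. Both readings were well above the vector floor and under the floor in S100A7 cells. MAGEA12 read 229.9 and 26.8, at least 3.33-fold lower. All 3 carry the suffix _x_at, given to probe sets with probes that also match other genes, so MAGEA6 and MAGEA3 are not told apart and the MAGEA12 reading may hold signal of its relatives. MAGEA2 with MAGEA2B read 83.2 and 21.7 and the pseudogene MAGEA5P with a read-through transcript 78.5 and 30.96, each falling below the floor from just above it and so with bounds of 1.21-fold and 1.14-fold. The other 8 probe sets, for MAGEA1, MAGEA4, MAGEA8, MAGEA9, MAGEA10 and MAGEA11 and again for MAGEA2 and MAGEA5P, were below the floor on both arrays, at 52.1 or less.

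Of the MAGE-B and MAGE-C probe sets, 1 of 7 and 1 of 4 were measured, and neither was 2-fold apart. MAGEB2, a close relative of the MAGE-A genes from the short arm of the X chromosome, went from 2671 to 1923, 1.39-fold lower on 1 probe set that lists 1 gene and carries no shared-probe suffix. It was thus clearly read on both arrays. The probe sets of MAGEB1, MAGEB3, MAGEB4, MAGEB6 and MAGEB18 were below the floor, at 23.6 or less. MAGEC2 was read by 2 probe sets, 1 of which barely reached the S100A7 floor (43.9 with vector, 69.8 with S100A7) while the other read 36.3 and 40.4. MAGEC1 (27.5 and 1.90) and MAGEC3 (36.1 and 6.77) were below the floor on both arrays.

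SSX proteins are transcriptional repressors of the nucleus, known from synovial sarcoma, in which a part of SSX1, SSX2 or SSX4 is fused to SS18. SSX1 went from 926 with vector to 125 with S100A7, 7.39-fold lower and above the floor on both arrays. Its other probe set read 86.0 and 30.5, a bound of 1.25-fold. SSX4 with SSX4B was lower by like amounts on both measured probe sets, at 406 and 74.8 (5.42-fold) and at 383 and 61.6 (at least 5.55-fold).
The 3 probe sets of SSX2 and SSX2B agreed in direction. They read 279.9 and 22.2 (at least 4.06-fold lower), 410.1 and 106.6 (3.85-fold) and 331 and 107 (3.09-fold), so that 2 of the 3 kept a reading above the floor in S100A7 cells. SSX3, read by probe sets listing that gene alone, went from 239 to 15.3 (at least 3.47-fold lower), from 155 to 10.1 (at least 2.25-fold) and from 99.98 to 38.7 (at least 1.45-fold). Every SSX3 reading was below the floor in S100A7 cells. A probe set listing SSX2, SSX2B and SSX3 together was 1.34-fold lower (129 and 96.9). Of the family's 14 probe sets 11 were measured and 8 were at least 2-fold lower, with a median log2 ratio of -1.80. The 3 below the floor list SSX2B, SSX4 with SSX4B, and SSX3, SSX5 and SSX7, so that SSX5 and SSX7 had no reading of their own. All 8 lower SSX probe sets end in _x_at.

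SPANX proteins sit at the nuclear envelope of sperm. All 4 measured probe sets of the family were at least 2-fold lower. That listing SPANXA1, SPANXA2 and SPANXC went from 569 to 61.3, at least 8.24-fold lower. That which adds SPANXB1 read 535 and 108, 4.96-fold lower, and that for SPANXA1 and SPANXA2 317 and 83.2, 3.81-fold lower. SPANXB1 has a probe set of its own without a shared-probe suffix, at 154 and 48.4, at least 2.24-fold lower. The fifth probe set reads SPANXA2-OT1, an overlapping transcript named after SPANXA2, and was below the floor (27.7 and 28.2).

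XAGE, PAGE and GAGE genes encode small related antigens, of which XAGE1 is best known from lung cancer. XAGE1A with XAGE1B went from 16604 to 4782, 3.47-fold lower. Unlike the MAGE-A readings it stayed far above the floor in S100A7 cells. XAGE2 read 143 and 53.2, at least 2.08-fold lower, and the pseudogene XAGE-4 214 and 154, 1.39-fold lower, while XAGE3 was below the floor (20.9 and 17.4). XAGE1 and XAGE2 are, with SPANXB1, the 3 lower readings from probe sets with neither the suffix _x_at nor _s_at.
No GAGE or PAGE probe set was measured: the 5 of GAGE read at most 52.9, and of the 3 of PAGE the highest, PAGE4, read 67.3 and 67.5. The same held for CTAG1A, CTAG1B (the genes of NY-ESO-1) and CTAG2, with 5 probe sets at 39.5 or less, and for CT45, with 2 at 24.5 or less. VCX2, of a family at the tip of the short arm, read 105 and 55.2 on 1 probe set and 77.1 and 49.8 on the other, with bounds of 1.52-fold and 1.12-fold. In all, 7 of the 11 families had a measured probe set and 4 had one at least 2-fold lower.

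**Figure D2:**
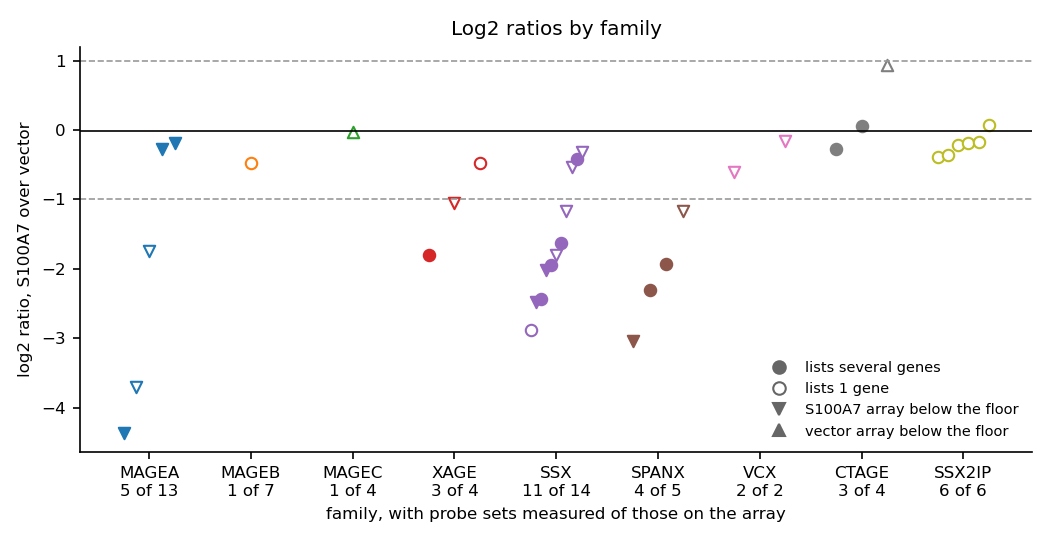
Log2 ratio of S100A7 over vector for each measured probe set, by family; filled symbols list several genes, open ones 1 gene, and triangles mark bounds where 1 array was below its floor. MAGEA, XAGE, SSX and SPANX reach below the dashed line of 2-fold, and MAGEB, MAGEC, VCX, CTAGE and SSX2IP do not.

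The CTAGE genes and SSX2IP, set apart from the 11 families, stayed within 2-fold. The 6 probe sets of SSX2IP, a protein of centrosomes and cell junctions, read from 452 to 1841 with vector and from 355 to 1620 with S100A7, with log2 ratios from -0.39 to 0.08. CTAGE1 read 68.0 and 136, at least 1.91-fold higher, and the probe sets for CTAGE4, CTAGE8 and CTAGE9 had log2 ratios of -0.28 and 0.06.

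Shared probe sets were counted apart from those of 1 gene. Of the 29 that list several, 15 were measured and 10 were at least 2-fold lower, beside 2.08% of all measured probe sets of any kind. The share over all that list several was not counted. Of the 45 that list 1, 21 were measured and 7 were lower, beside 2.02% of all that do not list several. The 6 of SSX2IP are among these 45. Within the MAGEA family, 1 of 3 measured shared probe sets and 2 of 2 measured single ones were at least 2-fold lower; within SSX these were 5 of 6 and 3 of 5, within SPANX 3 of 3 and 1 of 1, and within XAGE 1 of 1 and 1 of 2. Probe sets of a family share probes, so the 17 are not 17 separate observations. The count is also bounded by the floor and by probe design. With the floor at the 70th percentile 5 of 20 measured were lower, beside 0.855% of all. Without probe sets ending in _x_at or _s_at 3 of 8 were lower, beside 2.18% of all.

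A further list held 43 cancer-testis genes of the X chromosome outside these families, 28 of them on the array. Of these 9 were measured, 3 of them at least 2-fold lower and 0 higher, where 2.25% and 1.8% of all 12688 measured genes were. IL13RA2, a decoy receptor for interleukin-13 that is also counted among these antigens, went from 6615 to 119, 55.8-fold lower. FAM133A read 603 and 59.1, at least 8.74-fold lower, with its second probe set at -3.12 on the log2 scale. PLAC1, a gene of the placenta, read 182 and 83.1, 2.19-fold lower. CT83, at 528 and 349, and FATE1, at 83.7 and 92.8, stayed within 2-fold.
Of 92 autosomal cancer-testis genes listed, 87 were on the array and 33 were measured. At least 2-fold lower was 1 and higher 0, beside the 2.25% and 1.8% of all genes; the difference from the X-linked list was not tested. The median log2 ratio was 0.08, against -0.31 for the X-linked list and -0.04 for all genes. The 1 was GPAT2, an acyltransferase gene of the germ line, at 1379 and 524, 2.63-fold lower. Many genes of this list, such as TTK, NUF2 and KIF20B (log2 ratios 0.61, 0.74 and 0.93), work in mitosis and are active in most dividing cells.
Of 12 listed MAGE genes that are active in many tissues, 6 were measured, 1 was at least 2-fold lower and 0 higher, beside the 2.25% and 1.8% of all genes. It was MAGED1, a regulator of cell death and differentiation, at 4078 and 2022, 2.02-fold lower, and with median centring or a 3-fold threshold the count was 0. MAGEH1 and MAGED2 had log2 ratios of -0.81 and -0.56. MAGEE1, at 0.26, was the 1 member above 0, though its other probe set was at -1.03.

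**Figure D3:**
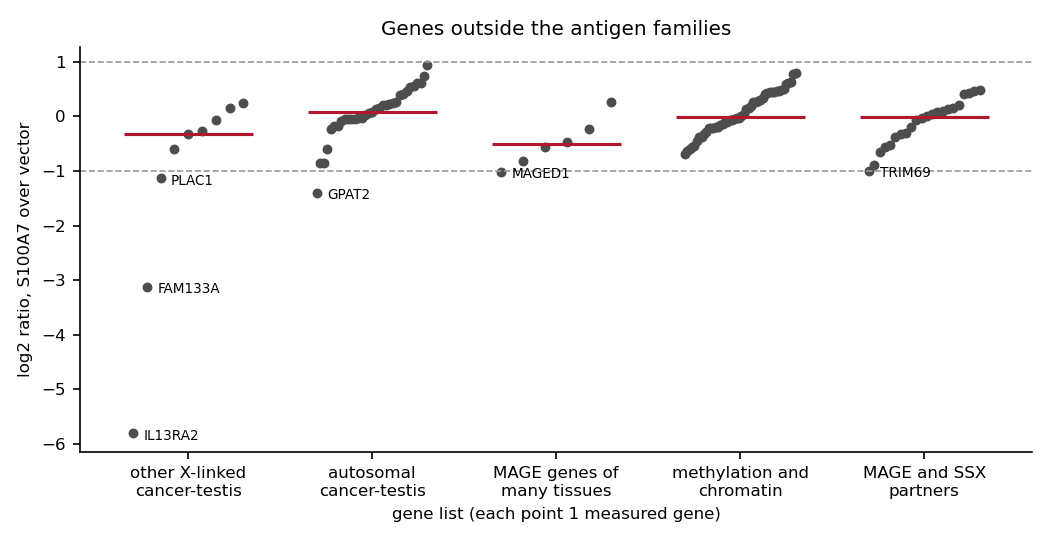
Log2 ratio of S100A7 over vector for each measured gene of 5 lists outside the antigen families, with the list median as a red line and dashed lines at 2-fold; genes at least 2-fold lower are named. IL13RA2 and FAM133A stand far below the rest, and the points of the methylation and chromatin list, 1 brightest probe set a gene, lie within 2-fold.

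A list of enzymes that methylate DNA and proteins that read or shape chromatin at germ-line promoters held 54 genes, of which 48 were measured. By the brightest probe set of each gene 0 were at least 2-fold lower and 0 higher, beside the 2.25% and 1.8% of all genes, and 24 had a log2 ratio above 0 and 24 below. DNMT1, which copies methylation at replication, read 5011 and 4776, and UHRF1, which recruits it, 7482 and 6534. DNMT3B, a de novo methyltransferase, read 309.6 and 422, and DNMT3A 462 and 316, with log2 ratios of -1.50 and -0.45 on its other ones. By the brightest probe set the outermost were KDM1A, a histone demethylase, at 0.80, HDAC2, a histone deacetylase, at 0.78 (other probe set -0.42), and SUV39H1, a histone methyltransferase, at -0.68. Other probe sets went further for some genes, with MBD1, which binds methylated DNA, at up to 1.30 and SUV39H2, a histone methyltransferase, just past 2-fold lower. Without probe sets ending in _x_at or _s_at 1 gene of the list was at least 2-fold higher. These are levels of RNA, and neither enzyme activity nor methylation was measured.
Among proteins that bind MAGE and SSX proteins, 22 of 26 listed genes were measured, 1 was at least 2-fold lower and 0 higher, beside the same shares of all genes. It was TRIM69, a RING ubiquitin ligase, at 309 and 154, 2.00-fold lower, with another probe set at -0.88. The count was 0 with median centring, a floor at the 70th percentile, a pseudocount of 32, a 3-fold threshold or the median over probe sets of a gene. TRIM28, the ligase that MAGEA3 and MAGEA6 bind, read 13830 and 7430, a log2 ratio of -0.90. SS18, the fusion partner of SSX genes, had a log2 ratio of 0.13 (0.22 to 0.79 on other probe sets), and DCAF12, which directs the breakdown of MAGEA3, 0.22.

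Along the X chromosome the lower antigen genes lay in different surroundings. Order and neighbours are those of the RefSeq gene table, and genes were taken by their brightest measured probe set of 1 gene. MAGEA3, MAGEA6 and MAGEA12 lie together on the long arm, and the nearest measured protein-coding genes outside the families stood close to 0: VMA21 and FATE1 on one side at -0.12 and 0.15, and CETN2 and NSDHL on the other at -0.04 and -0.09. SPANXA1 and SPANXC lie between LDOC1 (0.08) and FMR1 (0.16), and SPANXB1 between FGF13 and LDOC1. FGF13 went from 2461 to 19.9, a bound of -5.16 on the log2 scale. Beside MAGEB2, IL1RAPL1 was at -0.05 and TAB3 read 289.9 and 289.7.
Around the SSX and XAGE genes of the short arm, the median of the surrounding genes was further below 0. Beside SSX1, SSX3 and SSX4 stood ZNF182 (-0.86), ZNF630 (at least 2-fold lower, -1.07), FTSJ1 (-0.64) and EBP (-0.61). Beside XAGE1, XAGE2 and SSX2 stood MAGED1 (-1.01), NUDT10 (-0.08), GPR173 (-2.08) and TSPYL2 (-0.77). The value of NUDT10 is a bound, as it read 73.1 with vector and 36.7, below the floor, with S100A7. Over the 40 nearest measured genes outside the families, the median was -0.54 around SSX1 and -0.59 around XAGE1 and SSX2, against -0.21 around MAGEA3, -0.20 around SPANXA1 and 0.03 around MAGEB2. Of these 40, at least 2-fold lower were 2 around SSX1, 6 around XAGE1, 2 around MAGEA3, 3 around SPANXA1 and 1 around MAGEB2. Of all 384 measured X-linked genes outside the families 5.21% were, and these differences were not tested.
With that local median subtracted, a step added after the values were seen, 14 of the 17 were still at least 2-fold lower. XAGE2 (-0.47), 1 SSX3 probe set (-0.63) and SPANXB1 (-0.95) were not. Each of these was below the floor in S100A7 cells, so its value is a bound and a larger difference is possible. The MAGEA6 and MAGEA3 probe set was then at -4.16, also a bound, that of SSX1 at -2.35 and that of XAGE1 at -1.21. What part the surroundings have in the lower SSX and XAGE readings was not tested.

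**Figure D4:**
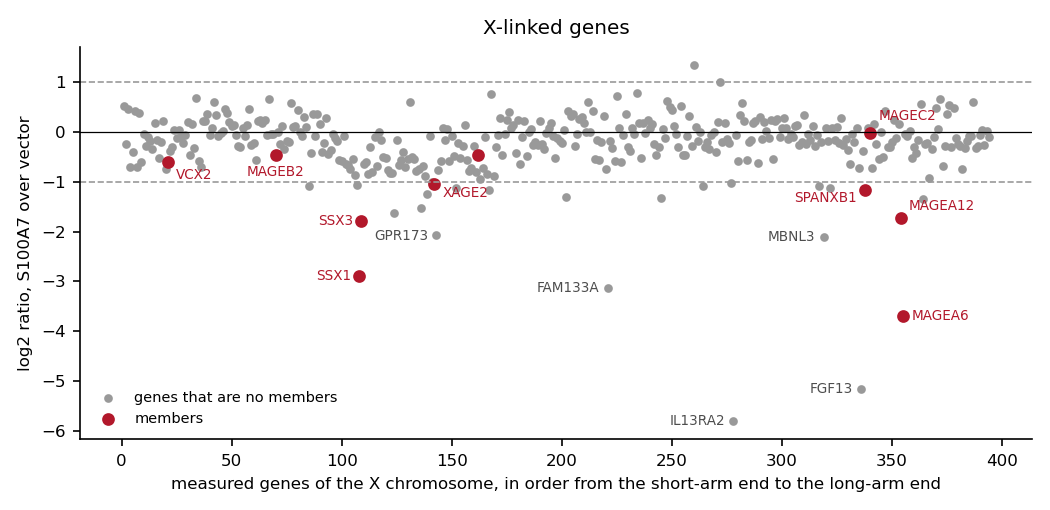
Log2 ratio of S100A7 over vector for the 394 measured genes of the X chromosome in gene order (grey), with the 10 antigen genes read by probe sets of 1 gene in red and dashed lines at 2-fold. MAGEA6, SSX1, MAGEA12 and SSX3 lie well below their neighbours, and the grey points dip below 0 around SSX1 and XAGE2.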

How the data were processed

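Total RNA of 2 cultures was hybridised to Affymetrix arrays, 1 per group, after Trizol extraction and labelling of 2 µg as biotinylated cRNA, per the labels' protocols. Each array's deposited column holds an intensity for every probe set, which the authors made with MAS5 per the submitters' processing notes; version, scaling target and detection calls: not given in the sources used here. Trimmed means (2% off each end) were 500.1 on both arrays, so the values were used as deposited. Columns of values left unused numbered 0. The number of arrays limits the precision.

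Gene names came from the platform's annotation, with current symbols and chromosome order from a RefSeq gene table (GRCh38.p14) by Entrez identifier. The 62 control probe sets were left out, leaving 54613. Measured probe sets reached their array's 50th percentile on at least 1 array; 29460 did, for 12688 genes where 1 gene was listed, each taken by its brightest measured probe set. Probe sets and genes were counted at 2-fold. The members and lists were chosen with earlier results of these data known. Named by rule were S100A7, measured members at least 2-fold apart, the brightest of each family, single-gene members of MAGEA, MAGEC and SSX, up to 4 genes per list and direction at least 2-fold apart, and measured X-linked neighbours; other genes named were chosen after their values were seen. Alternatives covered array scaling, floor, pseudocount, fold threshold and kinds of probe set. The counting was tested on simulated arrays with changes placed only in brightly read probe sets, so dim ones were not covered. Python 3.11.15, pandas 2.3.3 and Biopython 1.88 were used.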

Additional observations from a re-analysis of the deposited data

How the results depend on the processing

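The count of 17 lower members stayed within 1.5 times, at 14 to 24, with median centring, quantile normalization, a floor at the 30th percentile, a pseudocount of 32, thresholds of 1.5-fold and 3-fold, without CTAGE and SSX2IP, and with the median of X-linked neighbours subtracted. It was 5 with a floor at the 70th percentile, 39 with no floor and no filter, 3 without probe sets ending in _x_at or _s_at, and 7 without probe sets listing several genes. These settings count fewer or more probe sets by construction. In the same order, 0.855%, 14.1%, 2.18% and 2.02% of all counted probe sets were lower. That share was 9.57% at 1.5-fold, 5.93% with the floor at the 30th percentile, 3.07% with the pseudocount and 0.35% at 3-fold. The count of higher members was 0 except for 1 at 1.5-fold (CTAGE1) and 2 with no floor and no filter, where readings far below the floor enter. Of all counted probe sets, 10% and 12.7% were higher in those settings. The median log2 ratio of -0.57 was -0.98 with a pseudocount of 32 or a floor at the 30th percentile, -1.20 with no floor and no filter, and -1.63 without CTAGE and SSX2IP. It moved by less than 0.36 under the others. That value is the standard deviation on the log2 scale between probe sets of a gene, used only as a yardstick. It comes from the same arrays and holds no spread between cultures. No value at least 2-fold apart changed sign. With the floor at the 70th percentile 11 of the 17 were still measured and 5 were at least 2-fold lower, the rest being bounded by that floor. Median centring shifts every log2 ratio by 0.04. No paired analysis was possible because each group has 1 array. Without detection calls, the floor decides what counts as read, and no spread between cultures or between separately selected lines is known.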

Other observations

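X-linked genes outside the antigen families also included more lower than higher readings. Of 384 measured, 20 were at least 2-fold lower in S100A7 cells (5.21%) and 1 was higher, against 2.11% lower and 1.85% higher among 12279 genes of the other chromosomes; chromosome 7 had 5.03% lower and 0.347% higher. The median log2 ratio was -0.14 for these X-linked genes, -0.30 for chromosome 7 and -0.33 for chromosome 15. The 20 lower genes include IL13RA2, FAM133A and PLAC1, counted above as X-linked cancer-testis genes outside the families. Genes chosen after their values were seen include MBNL3, a splicing regulator (296 in vector cells, 19.8 in S100A7 cells), MAOA, the monoamine oxidase (549 and 259.8), BEX2 (458 and 184) and the kinase gene STK26 (653 and 307). The 1 higher gene was CLDN2, a claudin of tight junctions, at 51.1 and 179.9.

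Most markers of other cell types in which some antigens are read were below the floor on both arrays. TYR and UTF1 were above it on the vector array only. The melanocyte gene TYR went from 135 to 40.4 on 1 of its 3 probe sets, MLANA at most 31.6, and the pluripotency gene UTF1 109 and 16.2, PMEL 58.4 and 71.0, just past the S100A7 floor, while NANOG, LIN28A and DPPA4 read 36.1 or less on both arrays. The placental genes CGA, PSG1 and ERVW-1 were below the floor, at 68.1 or less.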
